A study of Mus musculus with 5 samples.

Results

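The genes described here encode the proteins of the mitochondrial ribosome, measured in germinal centre B cells with and without a deletion of Rel. They were chosen by name, as all genes with a probe set of exactly 1 symbol whose symbol begins with Mrpl or Mrps followed by a number. This gave 76 genes out of 18193 on the array, 47 named for the large subunit and 29 for the small one. All 76 passed the filter on dim probe sets that left 12082 genes for testing. Mrpl30 and Mrpl53 share every probe set with another gene and are not analysed here.

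The mitochondrial ribosome translates the few proteins encoded by mitochondrial DNA, all of them core parts of the respiratory chain and of ATP synthase. Its own proteins come from nuclear genes and are imported. Some descend from bacterial ribosomal proteins, while others are found in mitochondria alone. Germinal centre B cells are known for fast division and active mitochondrial respiration.

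Cells were sorted from the spleens of C57BL/6 mice aged 12 weeks, 7 days after they had been injected with sheep red blood cells, and each sample was hybridised to 1 Affymetrix array. The 3 WT arrays came from Cg1-Cre mice and, per the series' design text, from eGFP-negative cells. The 2 REL arrays came from eGFP-positive cells of relfl/flCg1-Cre littermates, in which Cre removes the floxed alleles of Rel, the gene of the NF-kB subunit c-Rel. Both groups carry Cg1-Cre, which is active in B cells that transcribe the gamma 1 heavy chain locus after antigen contact. The sort gate differs with the genotype, and the effects of the gate and the genotype cannot be told apart. Separate animals are not named in the labels, and p-values therefore measure only how far these samples scatter, which may be technical. RNA was amplified as cDNA before labelling.

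The Rel signal was 492, 134 and 206 on the WT arrays against 18.6 and 85.2 in REL (log2 difference −2.12, SE 0.73, adjusted p = 0.46 in limma), and which part of the gene its probe set covers relative to the deletion is not known here. Of 12 germinal centre B cell markers 10 were measured and none read under the filter's signal of 23.1 on any array, with Pax5 the weakest at 71.4 to 209. Their summed signal was 55596 to 68917 in WT against 56441 and 62324 in REL. Markers of macrophages, monocytes and neutrophils differed more: 11 of the 14 that passed the filter, out of 20, lay above 0. Of all genes 56.8% lay below 0. The other 3 markers were the neutrophil genes S100a8 and S100a9, both at −1.65 with overlapping arrays, and the macrophage gene Adgre1. Adgre1 was at −0.83, with both REL arrays below every WT array. The summed signal of all 20 was 1432 to 3605 in WT against 9041 and 7219 in REL. C1qa, C1qc, Marco, Cd163, Cd14 and Itgam did not pass the filter. The filter used the mean over all 5 arrays, so genes bright in REL alone could pass it. Vcam1 (0.83 to 2.46 in WT against 671 and 390 in REL), Mrc1 and Mertk read under 23.1 on every WT array. The count of these markers above 0 is therefore partly set by the filter. T cell markers summed to 4888 to 5440 in WT against 6534 and 5360 in REL, most of it from Cd2. Of 8 T cell markers 3 passed the filter, Cd2 at 0.17, Cd247 at 1.72 and Cd8a at −0.04, all with overlapping arrays. Cd3d, Cd3e, Cd3g and Cd4 did not pass. Erythroid markers summed to 144 to 563 in WT against 113 and 53.1 in REL. Of the plasma cell markers Sdc1 was at −1.96, Irf4 at −0.43, Jchain at −0.03, Prdm1 at 0.43 and Xbp1 at 0.49. The plasma cell markers summed to 17808 to 20836 in WT against 17278 and 19114 in REL. Among endothelial and stromal markers Pecam1 and Pdgfrb were at 1.25 and 1.28, Col1a1 at 0.53 and Cdh5 at −0.03, with no signal over 321. Fcer2a, on the same list but not particular to these cells, read 834 to 1560 over the arrays and was at 0.27. Pdgfra did not pass the filter. The probe set in the middle of 18S ribosomal RNA read 8696 to 9822 in WT against 11953 and 13417 in REL, and that at its 5′ end 293 to 858 against 1671 and 1984. The part of these shifts in the results below was not tested. In bulk RNA, fewer cells of a type and less RNA per cell cannot be told apart.

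The promoters of the 4 members on which the results below turn are shown first, since the deleted gene encodes a transcription factor. They are Mrpl33, Mrps24 and Mrps22, the members with the smallest p, and Mrps9, which pointed the other way. Each line holds the 250 bases before the start of the gene, from RefSeq (GRCm38.p6), 5′ to 3′, with the matches to any of the motifs below in capitals.
Mrpl33 (chr5:31613701-31613950, plus strand): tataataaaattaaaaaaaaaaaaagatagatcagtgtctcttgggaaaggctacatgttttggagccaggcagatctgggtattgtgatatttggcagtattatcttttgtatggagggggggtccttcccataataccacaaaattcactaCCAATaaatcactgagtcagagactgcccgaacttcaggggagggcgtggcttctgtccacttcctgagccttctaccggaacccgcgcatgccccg
Mrps24 (chr11:5707702-5707951, minus strand): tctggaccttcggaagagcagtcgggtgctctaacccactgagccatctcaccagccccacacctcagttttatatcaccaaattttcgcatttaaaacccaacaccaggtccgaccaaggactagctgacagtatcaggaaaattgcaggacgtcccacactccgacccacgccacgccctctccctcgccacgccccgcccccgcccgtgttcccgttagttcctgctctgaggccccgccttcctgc
Mrps22 (chr9:98601680-98601929, minus strand): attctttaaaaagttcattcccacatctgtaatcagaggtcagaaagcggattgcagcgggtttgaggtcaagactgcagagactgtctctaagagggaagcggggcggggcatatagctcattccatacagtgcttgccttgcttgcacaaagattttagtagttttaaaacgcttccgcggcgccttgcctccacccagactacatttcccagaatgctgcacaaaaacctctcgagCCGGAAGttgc
Mrps9 (chr1:42850983-42851232, plus strand): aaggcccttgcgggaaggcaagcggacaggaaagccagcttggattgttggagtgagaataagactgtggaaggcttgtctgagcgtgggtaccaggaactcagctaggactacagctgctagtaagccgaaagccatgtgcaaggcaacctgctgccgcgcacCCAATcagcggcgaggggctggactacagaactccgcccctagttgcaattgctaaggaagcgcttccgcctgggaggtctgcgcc

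The motifs searched, on both strands, were the palindromic NRF1 consensus, by its name, and its core TGCGCA, both for NRF1, an activator of nuclear genes of mitochondrial proteins, CCGGAAG for ETS factors, the E-box CACGTG, the box CCAAT, and the NF-kB consensus by its name. The core can overlap the palindrome. In the windows printed, Mrpl33 and Mrps9 held CCAAT, Mrps22 held CCGGAAG and Mrps24 held none of the 6. Promoters of 67 of the 76 members were listed, in windows of 250 bases before and 50 after the start, longer than those printed. TGCGCA stood in 26.9% of these genes and CCGGAAG in 25.4%, against 7.36% and 7.83% of the 27025 genes with a promoter listed. The palindrome was found in 4.48% against 0.877%, and CACGTG in 7.46% against 6.86%. CCAAT was found in 35.8% against 37.5%. The NF-kB consensus was found in 3 members, or 4.48%, against 5.67% of all genes. These are matches of letters and not sites of binding.

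Most members lay slightly lower in REL. Of the 76 members 60 lay below 0 and 16 above, and the median log2 difference was −0.20 on the log2(signal + 16) scale used throughout, while 56.8% of all genes lay below 0 and the median of all genes was −0.07. The large subunit stood at a median of −0.19, with 39 of 47 members below 0, and the small subunit at −0.22, with 21 of 29. No member passed an adjusted p of 0.05 in limma, a threshold that 0.00828% of all genes, a single gene, passed. That gene was Vcam1, from the list of macrophage, monocyte and neutrophil markers (4.89, limma adjusted p = 0.0388). At an unadjusted p under 0.05, 13 members (17.1%) lay lower, where 4.99% of all genes did, and 1 (1.32%) lay higher, where 3.24% did. Both REL arrays were under all 3 WT arrays for 20 members (26.3%), against 14.3% of all genes, and over all of them for 4 (5.26%), against 9.53%. The members were bright genes that vary less than most: their median SD between WT arrays was 0.22 log2 units, against 0.35 over all genes.

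The size of this shift rested largely on REL replicate 1. The median deviation of the members from the mean of the WT arrays was −0.03, 0.10 and −0.01 on the WT arrays, −0.33 on REL replicate 1 and −0.11 on REL replicate 2. On the same arrays the median of all genes was at −0.05, 0.01, 0.06, −0.03 and −0.09. REL replicate 1 thus lay well below the level of all genes and REL replicate 2 close to it. On REL replicate 1, 61 members lay below their WT mean and 15 above, and on REL replicate 2, 44 and 32. Without REL replicate 1 the median of the members was −0.11 against −0.10 for all genes, 8 members lay lower at an unadjusted p under 0.05 (10.5%, against 7.26% of all genes) and the REL array lay below every WT array for 31 (40.8%, against 34.7%). Without REL replicate 2 the median was −0.33 against −0.03, and the last 2 counts were 17 (22.4%, against 6.51%) and 43 (56.6%, against 31.1%). When each array was centred on its median, the median of all genes moved from −0.07 to 0.10 and the share of all genes below 0 from 56.8% to 40.6%. After centring, 41 members lay below 0, and 3 passed an unadjusted p of 0.05 below 0 (3.95%, against 2.43%). The distance of the members' median from that of all genes, −0.14, cannot change, because centring moves all genes of an array alike.

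**Figure D1:**
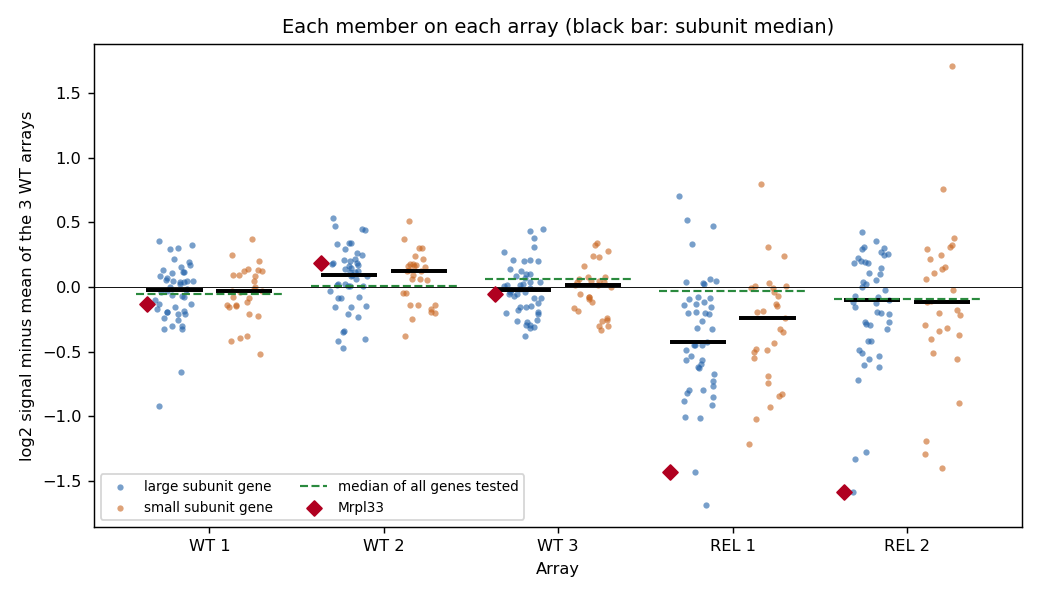
Log2 signal of each member minus its mean over the 3 WT arrays (vertical axis, log2 units) on each of the 5 arrays, with 1 point per gene, large subunit in blue and small subunit in orange, black bars at the subunit medians, green dashed lines at the median of all genes tested and red diamonds at Mrpl33. Most points of REL replicate 1 lie below 0 (61 of 76), those of REL replicate 2 spread to both sides (44 below), and Mrpl33 stands at −1.43 and −1.59 on the REL arrays.

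Mrpl33 had the lowest p of the family. It encodes a small large-subunit protein of bacterial descent, which in bacteria lies near the site where spent tRNA leaves the ribosome. Its signals were 6139, 7616 and 6455 in WT against 2474 and 2221 in REL. The groups did not overlap, and the REL level was 35.1% of that in WT, a difference of −1.51 in log2 (SE 0.18, limma adjusted p = 0.0518). Mrpl33 was singled out with this result known. Its deviation from its own WT mean, less the median deviation of the other 75 members on the same array, was −1.11 on REL replicate 1 and −1.48 on REL replicate 2. Among the deviations of all 76 members it was rank 2 from the lowest on REL replicate 1 and rank 1 on REL replicate 2. The difference was −1.59 without REL replicate 1 and −1.43 without REL replicate 2, so neither array alone carried it.

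The adjusted p of Mrpl33 depended on the setting. It fell under 0.05 with quantile normalization (0.0246) and without REL replicate 1 (0.0356), and was 0.274 to 0.478 when any WT array was left out. A second probe set of Mrpl33 was dim, with signals of 17.9 to 52.4 over the 5 arrays, and pointed the same way (−0.21, SE 0.55). The mean of both gave −0.86 (adjusted p = 0.579).

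Of the 47 large-subunit members, Mrpl33 included, 12 (25.5%, against 14.3% of all genes) had REL arrays that both lay below every WT array. Mrpl41, a protein found in mitochondria alone, had signals of 6368, 10036 and 7881 in WT against 3936 and 5488 in REL. This was a difference of −0.77 in log2 (SE 0.22, limma adjusted p = 0.395), and its 2 other probe sets pointed the same way. Mrpl11, which forms the base of the stalk that recruits translation factors, read 8045, 7697 and 8776 in WT against 4689 and 6507 in REL (−0.56, SE 0.17). A second bright probe set of Mrpl11 gave −0.47, while another, with signals of 2530 to 4048, gave 0.00, so its probe sets disagreed, and without REL replicate 1 the difference was −0.33. Mrpl35, of bacterial descent, read 2630, 3060 and 3513 in WT against 1789 and 2130 in REL (−0.64, SE 0.23). Its 2 dim probe sets gave 0.45 and 0.95.

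In Mrpl41, Mrpl11 and Mrpl35 the WT and REL arrays did not overlap. Mrpl22 lines the tunnel through which the new protein leaves, and its signals were 3439, 4193 and 3050 in WT against 2383 and 2646 in REL (−0.49, SE 0.21). Mrpl39, found in mitochondria alone, read 1917, 5065 and 4982 in WT against 2056 and 1444 in REL (−1.07, SE 0.40). Its WT replicate 1 lay among the REL arrays, so the groups overlapped. Mrpl11, Mrpl35, Mrpl22 and Mrpl39 had limma adjusted p values between 0.425 and 0.591.

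The central protuberance, the crest of the large subunit that faces the small one, was the structural group with the lowest median. Its 7 members had a median of −0.52, with 5 below 0, and 3 of them (42.9%) lay lower at an unadjusted p under 0.05, against 4.99% of all genes, with arrays that did not overlap, against 14.3%. Mrpl38 read 795, 765 and 519 in WT against 332 and 272 in REL (−1.14, SE 0.43), although its 2 dim probe sets gave 0.78 and 0.36. Mrpl40 read 3600, 3543 and 4144 in WT against 2433 and 2802 in REL (−0.52, SE 0.20). Mrpl46 read 1349, 1317 and 1075 in WT against 683 and 837 in REL (−0.70, SE 0.31). Mrpl48 was at −0.56 with overlapping arrays, Mrpl18 at −0.05, Mrpl27 at 0.12 and Mrpl55 at 0.12, so the group was not uniform. On the arrays the group's median deviation was 0.08, 0.15 and −0.27 in WT against −0.62 and −0.27 in REL, and REL replicate 2 was level with WT replicate 3.

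The 4 measured stalk members had a median of −0.38 and held both directions. Their median deviation was −0.06, 0.06 and −0.005 on the WT arrays against −0.74 and −0.02 on the REL arrays. REL replicate 2 thus lay within the WT values. Beside Mrpl11 at −0.56, Mrpl10 read 563 to 583 in WT against 304 and 341 in REL (−0.80, SE 0.42), Mrpl12 was at −0.19 and Mrpl54 at 0.32. Mrpl54 was the single large-subunit member with both REL arrays (971 and 949) above every WT array (715 to 816). The exit tunnel group had a median of −0.06 over 6 members, close to that of all genes: beside Mrpl22 it held Mrpl17 at −0.24, Mrpl23 at −0.01, Mrpl24 at −0.03, Mrpl47 at −0.10 and Mrpl45. Mrpl45, which anchors the ribosome to the inner membrane, was at 0.27 (SE 0.44). Of the other members above 0, Mrpl16, which lies close to the site where peptide bonds form, was at 0.12 (SE 0.19) and Mrpl20, a protein of bacterial descent, at 0.14 (SE 0.27). For Mrpl45 and Mrpl20 the 2 REL arrays lay on opposite sides of the WT mean, and for Mrpl16 the difference ran from 0.04 to 0.22 with an array left out, lowest without WT replicate 1 or REL replicate 2.

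**Figure D2:**
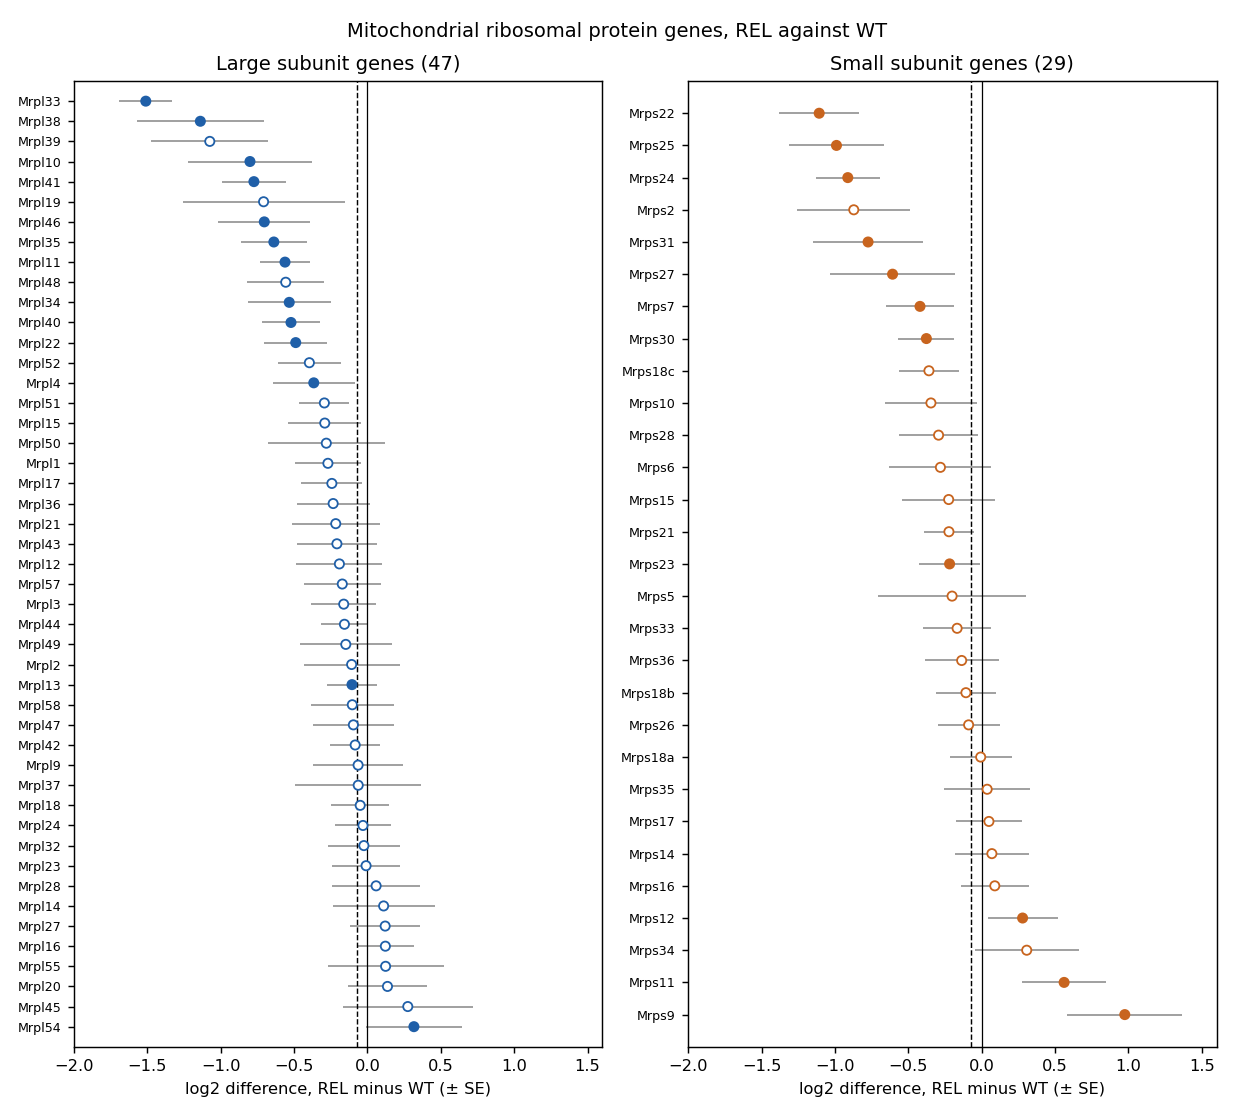
Log2 difference of REL minus WT (horizontal axis, points, with SE as bars) for the 47 large-subunit genes (left) and the 29 small-subunit genes (right), ordered by difference. Filled points are genes whose REL arrays lie all below or all above every WT array, open points are genes whose arrays overlap, and the dashed line is the median of all genes (−0.07). Mrpl33 at −1.51 lies lowest and Mrps9 at 0.97 highest.

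In the small subunit, Mrps24 and Mrps22 had the smallest p. Mrps24, the homologue of the bacterial protein at the entry of the mRNA channel, had signals of 3914, 3819 and 5534 in WT against 2278 and 2337 in REL, a difference of −0.91 in log2 (SE 0.22, limma adjusted p = 0.337). Its second probe set gave −0.48 (SE 0.30), also with both REL arrays below every WT array. Both probe sets of Mrps24 have names ending in s_at, a suffix for probes that can match more than 1 transcript. The probe sets used for Mrpl38, Mrps12, Mrpl19, Mrpl37, Mrps6 and Mrpl9 end in s_at as well. Mrps22, a protein of mitochondria alone whose mutations cause a human mitochondrial disease, read 2003, 1628 and 1876 in WT against 892 and 792 in REL (−1.11, SE 0.27, limma adjusted p = 0.337). It has 1 probe set. Its REL level was 46.4% of that in WT, and the REL arrays lay close together.

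Further small-subunit members also lay lower. Mrps25 read 1923, 3618 and 2346 in WT against 1572 and 1026 in REL (−0.99, SE 0.32), while its 2 dim probe sets gave 0.91 and 0.90. Mrps31 read 1669, 1165 and 1088 in WT against 546 and 1012 in REL (−0.77, SE 0.37), with REL replicate 2 just under the lowest WT array and a difference of −0.34 without REL replicate 1 and −1.21 without REL replicate 2. Mrps2, of bacterial descent, read 1137, 1622 and 1915 in WT against 1195 and 569 in REL (−0.87, SE 0.39). REL replicate 1 lay within the WT range of Mrps2, so the arrays overlapped, and the difference was −0.35 without REL replicate 2 and −1.40 without REL replicate 1. Mrps7, which in bacteria starts the folding of the small subunit's head, was at −0.42 (SE 0.23) with arrays that did not overlap. Mrps18c was at −0.36 (SE 0.20) with arrays that overlapped, and at −0.55 without WT replicate 1, −0.21 without WT replicate 2 and −0.22 without REL replicate 1. Mrps30, which is named for the small subunit but sits in the large one, was at −0.38 (SE 0.19), with 3390 to 4076 in WT against 2760 and 2989 in REL. The limma adjusted p lay between 0.437 and 0.705 for all 6.

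The 2 largest differences above 0 were in small-subunit genes. Mrps9, whose bacterial homologue reaches the peptidyl tRNA with its tail, read 1366, 1134 and 1270 in WT against 1483 and 4134 in REL, a difference of 0.97 in log2 (SE 0.39, limma adjusted p = 0.549). REL replicate 2 was far above all other arrays and REL replicate 1 just above the WT arrays, and the difference was 0.24 without REL replicate 2 and 1.71 without REL replicate 1. A second probe set gave the same picture, with 467 to 550 in WT against 860 and 2698 in REL (1.56, SE 0.47), and the 2 dimmer ones gave 0.63 and 0.04. Mrps11, on the platform that holds the mRNA, read 1444, 1058 and 1299 in WT against 2196 and 1578 in REL (0.56, SE 0.29, and 0.33 without REL replicate 1). Mrps12, part of the decoding centre, read 2102, 2202 and 1642 in WT against 2444 and 2334 in REL (0.28, SE 0.24, and 0.15 without WT replicate 3). Mrps9, Mrps11 and Mrps12 were the small-subunit members whose REL arrays both exceeded all WT arrays. Mrps34, found in mitochondria alone, was at 0.31 (SE 0.35) with overlapping arrays.

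**Figure D3:**
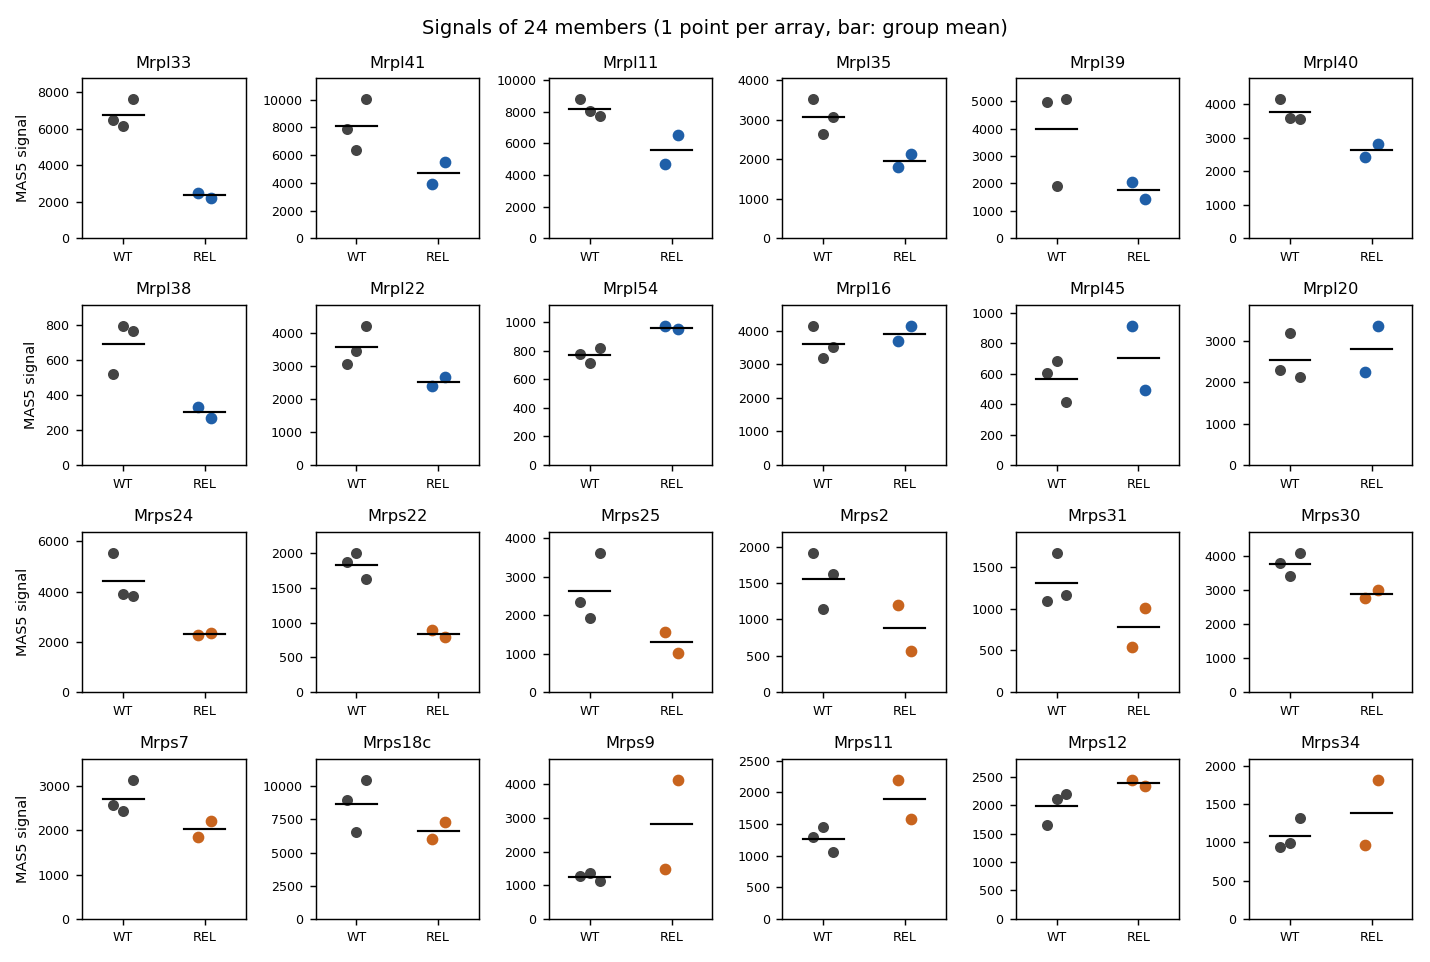
MAS5 signal (vertical axis, linear from 0, scaled for each gene) of 24 members on the 3 WT arrays (grey) and the 2 REL arrays (blue for the large subunit, orange for the small one), with bars at the group means. The REL points lie below all WT points for genes such as Mrpl33 (2474 and 2221 against 6139 to 7616) and Mrps22, and above them for Mrpl54, Mrps9, Mrps11 and Mrps12.

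The members named for the small subunit were also described by descent. Of the 16 of bacterial descent 10 (62.5%) lay below 0 and 6 above, near the 56.8% of all genes below 0. For 2 of them (12.5%) both REL arrays were below every WT array, near the 14.3% of all genes, and for 3 (18.8%) both were above, against 9.53%. Of the other 13, which are found in mitochondria alone or have diverged, 11 (84.6%) lay below 0. For 6 (46.2%) both REL arrays were below every WT array and for 0 both were above. Mrps30, Mrps18a and Mrps36, which are not small-subunit proteins by their present assignment, are among these 13 and the 11 below 0. Mrps30 is also among the 6. The medians were similar, at −0.22 and −0.17, and the difference between the kinds was not tested. In the large subunit the 29 measured members of bacterial descent had a median of −0.16 and the 18 others −0.24. There both REL arrays were below every WT array for 8 (27.6%) of those of bacterial descent and for 4 (22.2%) of the others. The order of these 2 shares was thus the reverse of that in the small subunit. The head of the small subunit held both directions, with Mrps24, Mrps31 and Mrps7 below and Mrps9 above, and a median of −0.26 over 8 members, of which Mrps10 was at −0.35, Mrps33 at −0.17, Mrps14 at 0.07 and Mrps35 at 0.04. The 8 members of the decoding region and platform had a median of −0.21. Among so few members, 0 with both REL arrays below every WT array is little removed from the 14.3% of all genes. Beside Mrps11, Mrps12 and Mrps18c these were Mrps5 at −0.20, Mrps6 at −0.28, Mrps15 at −0.23, Mrps17 at 0.05 and Mrps21 at −0.22. Mrps36, which is now assigned to the oxoglutarate dehydrogenase complex, was at −0.14 and Mrps18a, which sits in the large subunit, at −0.01.

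The 2 REL arrays disagreed on a share of the family. Both lay below the WT mean for 38 members and above it for 9, and they lay on opposite sides of it for 29. The largest gap was in Mrpl19, of bacterial descent, at 253 on REL replicate 1 and 1025 on REL replicate 2, with 667 to 1065 in WT. Its difference of −0.71 (SE 0.55) thus rested on REL replicate 1, since REL replicate 2 lay within the WT range. Gaps of over 1 log2 unit were also seen in Mrps9, Mrps15, Mrpl37 and Mrps2. REL replicate 1 was the lower array for 52 of the 76 members, whereas it was the lower one for 46.6% of all genes.

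Probe sets other than the one used for each gene gave a second reading. The members had 156 probe sets, of which 144 passed the filter, and 37 members had more than 1 that passed. In 16 of these all probe sets pointed the same way and in 21 at least 1 pointed the other way. Of the 29 other probe sets with a mean signal of at least 500, 22 pointed the same way as the one used, and their median was −0.20. Of the 39 dimmer ones 19 did, and their median was 0.11, with a median SD between WT arrays of 0.75 log2 units against 0.26 for the brighter ones. Disagreement was thus most frequent where signals were low. The largest differences among the other probe sets were 2.41 (SE 0.74) for one of Mrpl52, a large-subunit protein whose used probe set was at −0.40, and −1.70 (SE 0.60) for one of Mrpl51, whose used probe set was at −0.29. With the mean of all probe sets of each gene the large subunit was at −0.10 and the small one at −0.11, against −0.06 for all genes.

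**Figure D4:**
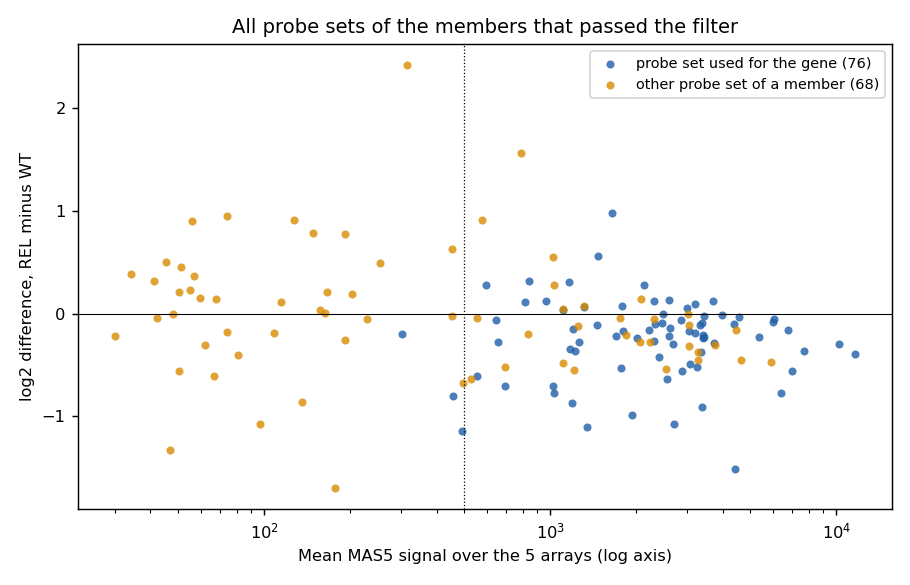
Log2 difference of REL minus WT (vertical axis) against the mean MAS5 signal over the 5 arrays (log axis) for the 144 probe sets of the members that passed the filter, with the 76 used in blue and the 68 others in orange and a dotted line at a signal of 500. Differences spread to both sides of 0 below that line and lie mostly below 0 above it.

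The rest of the mitochondrial translation system did not show one direction. Of 5 mitoribosome proteins with other symbols 4 were measured. Chchd1, a small-subunit protein, read 2544, 2255 and 1925 in WT against 1454 and 1255 in REL (−0.71, SE 0.25, limma adjusted p = 0.477), and Dap3, its GTP-binding protein, read 3861 to 4035 in WT against 2640 and 3712 in REL (−0.33, SE 0.20). For both the REL arrays lay below every WT array. Ptcd3 was at −0.08 and Gadd45gip1 at 0.29, and the median of the 4 was −0.21, or 0.08 without REL replicate 1.

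Of 17 translation factors 14 were measured, with a median of −0.27, 8 below 0 and 6 above. At an unadjusted p under 0.05 there was 1 in each direction (7.14%), near the 4.99% of all genes lower and 3.24% higher. Slirp, which protects mitochondrial mRNAs, read 6359, 7039 and 6947 in WT against 4838 and 4543 in REL (−0.53, SE 0.15, limma adjusted p = 0.4). Pdf, which removes the formyl group from new proteins, read 761, 662 and 817 in WT against 1286 and 1279 in REL (0.77, SE 0.32, limma adjusted p = 0.563). The elongation factor gene Tufm was at −0.44 (SE 0.23) while Tsfm, whose product recharges it, was at 1.11 (SE 0.53), each with arrays that did not overlap. Gfm2, which splits used ribosomes, was at −1.11 (SE 0.68) and Mtfmt, which formylates the initiator tRNA, at 0.67 (SE 0.39).

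All 26 assembly and rRNA modification factors were measured, with a median of −0.02, 14 below 0 and 12 above. The REL arrays both exceeded all WT arrays for 5 of them (19.2%, against 9.53% of all genes), and for 1 (3.85%, against 14.3%), Mrm1, both fell short of all WT arrays. Mtg1, a GTPase of large-subunit assembly, read 222, 136 and 393 in WT against 612 and 668 in REL (1.42, SE 0.55, limma adjusted p = 0.523), and was the single one at an unadjusted p under 0.05. Mterf3 was at 0.54 (SE 0.25) and Gtpbp10 at 1.02 (SE 0.56), and the arrays of Gtpbp10 overlapped. The rRNA methyltransferase genes Mrm3, Tfb1m, Mrm1, Nsun4 and Mrm2 were at −1.30, −0.67, −0.65, −0.25 and −0.03, with overlapping arrays in all but Mrm1. Of the 13 genes that the mitochondrial ribosome translates 1 had a probe set of its own. This was ND5, with 8739, 12108 and 10717 in WT against 9807 and 8613 in REL (−0.18, SE 0.16), where REL replicate 2 lay just under the lowest WT array.

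The nearest gene families were placed beside the members as a description. The 32 measured complex I subunits, which include the partners of proteins made by the mitochondrial ribosome, had a median of −0.22, with 26 below 0 and 12 (37.5%, against 14.3% of all genes) whose REL arrays both lay below every WT array. The 42 measured cytosolic ribosomal proteins had a median of −0.13, with 38 below 0 but 2 (4.76%, against the same 14.3%) with REL arrays below every WT array. The median deviation of complex I subunits was −0.30 and −0.12 on REL replicates 1 and 2, that of cytosolic ribosomal proteins −0.26 and 0.01, and that of the members −0.33 and −0.11. In all 3 families REL replicate 1 was the lower array. No test of a difference between the families was made.

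**Figure D5:**
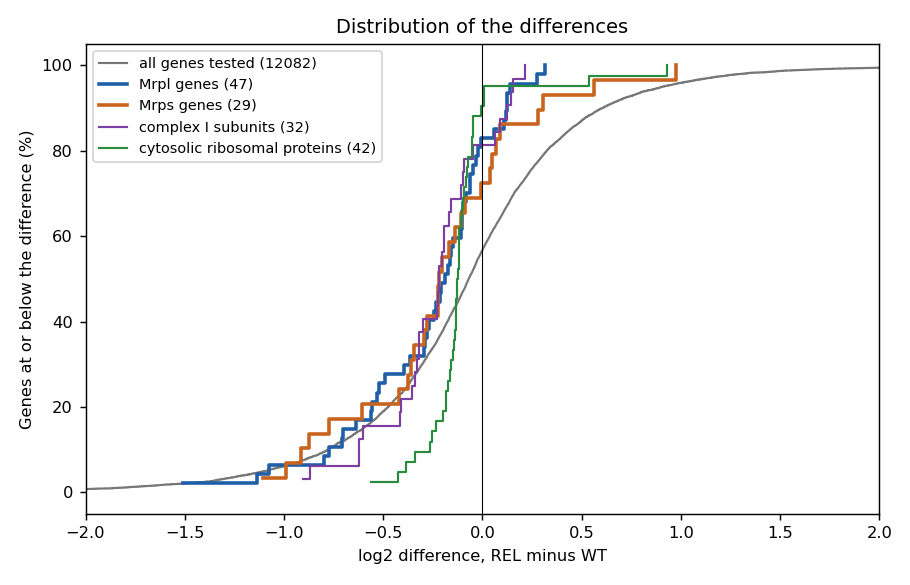
Share of genes (vertical axis, percent) at or below each log2 difference of REL minus WT (horizontal axis) for all 12082 genes tested, the 47 Mrpl genes, the 29 Mrps genes, 32 complex I subunits and 42 cytosolic ribosomal proteins. At 0 the Mrpl curve stands at 83.0% and the Mrps curve at 72.4%, against 56.8% for all genes.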

How the data were processed

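The authors deposited MAS5 signal intensities on a linear scale for 45101 probe sets on 5 arrays, and MAS5 is named without a version in the submitters' processing notes. The deposited values have a 2% trimmed mean of 500 on every array. MAS5 scores each array alone and subtracts mismatch probes, so low signals are noisy. No scanner settings are given in the labels.

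Signals were taken as log2(signal + 16) without further normalization, which understates the differences of dim genes. Probe sets in the lowest 40% by mean log2 value (a signal under 23.1) were left out, and each gene was read from its brightest remaining probe set. Gene names are those of the platform annotation, without the 932 probe sets with several symbols and 9211 with none listed. The fit over all genes was made in R 4.3.3 with limma 3.58.1 (a mean-variance trend in eBayes, two-sided p-values, Benjamini-Hochberg adjustment), with 3 residual degrees of freedom. It was tested on simulated data. Python 3.11.15 was used for tables and plots.

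The members and lists were chosen with earlier results of these data known. Named members are Mrpl33, the 8 below 0 and the 4 above 0 with the smallest p in each subunit, members of the structural groups described, and up to 3 genes per direction in each list. Mrpl51, Mrpl52, Mrpl19, Mrps15, Mrpl37, Mrps36 and Mrps18a were named after their values were seen. The number of arrays limits the precision. Alternatives were another pseudocount, filter, normalization, probe set rule or trend, the replicate number as a block, and each array left out.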

Additional observations from a re-analysis of the deposited data

How the results depend on the processing

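Mrpl33 kept its direction under every alternative, with differences of −1.59 to −0.86, and its adjusted p ran from 6.61e-04 to 0.579. It passed 0.05 with quantile normalization (−1.49), with the replicate block (−1.54) and without REL replicate 1 (−1.59), and the arrays left out in turn gave −1.59 to −1.42. Over all genes limma called 1, and 0 with a pseudocount of 1 or 64, no filter, the 60% filter, the mean of probe sets or no trend, 2 with quantile normalization, 3 with median centring, 18 with the replicate block and 0 to 8 with an array left out. Of the members 0 were called (14 had an unadjusted p under 0.05), 1 with quantile normalization, 2 with the replicate block (Mrpl33 and Mrpl41) and 0 to 1 with an array left out. The 13 members lower at an unadjusted p under 0.05 became 3 with median centring, 8 with the mean of probe sets, 7 without the trend and 7 to 17 with an array left out. The 20 members with REL arrays below every WT array became 9 with median centring and 25 to 43 with an array left out (31 without WT replicate 1 and 31 without REL replicate 1), where fewer arrays make separation easier. Those with REL arrays above every WT array were 4, 2 with median centring and 4 to 19 with an array left out (19 without REL replicate 1), and Mrps9, the 1 member higher at an unadjusted p under 0.05, lost that place with the mean of probe sets, without the trend, without REL replicate 2 (where Mrps11 held it) and when any 1 WT array was left out. The members below 0 were 41 to 61 over all alternatives.

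The median of the large subunit was −0.022 with median centring, −0.10 with the mean of probe sets and −0.42 to −0.10 with an array left out, and that of the small subunit −0.049, −0.11 and −0.24 to −0.11. The median of the translation factors was −0.10 with median centring, −0.14 with the mean of probe sets, −0.19 with the replicate block and −0.30 to −0.11 with an array left out. That of the assembly factors was 0.14 with median centring. The 4 mitoribosome proteins with other symbols had a median of −0.21, −0.25 with quantile normalization, −0.037 with median centring, −0.37 with the mean of probe sets, −0.092 with the replicate block and −0.56 to 0.08 with an array left out. With the mean of probe sets Mrpl35 (0.25), Mrpl38 (0.0028) and Mrps25 (0.27) changed sign, as did Mrpl45 without REL replicate 1 (−0.16, with a range of −0.16 to 0.71 over the arrays left out) and, without REL replicate 2, Mrpl20 (−0.15, range −0.15 to 0.43) and Mrps34 (−0.15, range −0.15 to 0.76). The cause was not tested.

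The labels do not say whether the replicate numbers pair the arrays. Deviations of same-numbered arrays correlated at −0.04 (replicate 1) and −0.02 (replicate 2) across genes. With 2 REL arrays the deviations of one mirror those of the other, so these values cannot decide whether arrays were paired. With the block WT replicate 3 has no partner and 1 residual degree of freedom is left. Leaving out a REL array leaves 1, which is assumed to vary like the WT arrays.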
